A study of Mus musculus with 12 samples.

Results

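S100 proteins are small calcium-binding proteins of the EF-hand superfamily, a fold in which a helix, a loop and a helix hold the calcium ion. The 8 genes S100a1, S100a4, S100a6, S100a8, S100a9, S100a10, S100a11 and S100a13 were chosen by symbol. They are 8 of the 19910 genes in the count table and those of its 17 S100 family symbols that passed the filter on low counts, which left 10993 genes for testing.

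The 12 RNA-seq libraries came from mouse bone marrow cells transduced in 4 ways, with 3 libraries per group. The marrow came from female C57BL/6J mice aged 6 to 10 weeks, and retrovirus was packaged in 293T17 cells, a human embryonic kidney line. Every group carried a pair of vectors. The controls, called empty here, carried 2 empty vectors. The SETBP1 group carried mutant SETBP1 (D868N) with an empty vector, and the NRAS group carried an empty vector with mutant NRAS (G12D). The SETBP1+NRAS group, called both mutants here, carried the pair together. NRAS is a GTPase that switches on the MAPK pathway, SETBP1 is a protein of the nucleus that binds DNA, and each is mutated in myeloid leukemias. The comparisons address what each mutant does alone and what they do together. The labels describe all 4 groups, the empty one included, as leukemia cells. The promoter of the vectors, the species of the inserts and any selection of transduced cells are not given in the sources used here. Nothing in the labels says that replicates came from separate mice or cultures, so p-values measure only the spread between these libraries, which may be technical.

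In cells, S100 proteins mostly work as dimers that change shape when calcium rises and then bind partners such as annexins, myosin and tropomyosin. S100a8 and S100a9 pair with each other as calprotectin, which is stored in the cytosol of neutrophils and monocytes, binds zinc and manganese, and acts outside the cell on Toll-like and other receptors. In bone marrow the calprotectin genes are switched on as granulocyte precursors mature, after the primary granule proteins. S100a4, S100a6, S100a10 and S100a11 act inside many cell types on the cytoskeleton, membranes and annexins.

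Total counts per library ran from 7085894 to 8864919. Libraries with NRAS held 1423 to 1712 normalised CPM of Nras, against 82.0 to 93.0 in the others. Normalised CPM are counts scaled to a common library total and for composition by the trimmed mean of M-values. Setbp1 had 0 counts in the empty and NRAS libraries, 5 to 7 in the SETBP1 libraries and 11 to 17 with both mutants. General blood cell markers (Ptprc, Spi1, Laptm5, Itgam and Coro1a) summed to 2846 to 3583 normalised CPM in every library. Summed B cell, T cell and stromal marker lists reached at most 21.6, 10.6 and 7.99 normalised CPM, with Pax5, Cd3e and Cxcl12 at 0 counts in all libraries. The adult globins Hbb-bs and Hba-a1 were also listed at 0. SETBP1 replicate 3 stood apart. Its log2 CPM correlated at 0.946 and 0.953 with the rest of its group, against 0.984 to 0.991 for the other pairs within groups. Beside the mean of the other SETBP1 libraries it was higher by a median of 0.22 (log2) over the 547 tested genes with transcripts of at most 1000 bases, and by -0.0040 over the 10439 longer ones. All 8 S100 transcripts are short, at 486 to 731 bases. In the same comparison S100a8 and S100a9 differed by -0.50 and -0.31 and the other 6 by 0.13 to 0.55. Changes that rest on this library are therefore also given without it, a choice made after its values were seen.

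All 8 genes lie on chromosome 3 (GRCm38, GENCODE annotation), 6 of them within the main S100 cluster. In order along the chromosome these are S100a1 (90511034-90514392, minus strand), S100a13 (90514435-90524581), S100a4 (90603771-90606045), S100a6 (90612882-90624181), S100a8 (90668978-90670035) and S100a9 (90692632-90695721, minus strand). S100a11 (93520488-93526287) and S100a10 (93555080-93564643) lie 2824766 bases further on and 28792 bases from each other. Genes without a stated strand are on the plus strand. The longest protein-coding transcript has 3 exons in each gene but S100a13, which has 4.

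The S100 genes that are not among the 8 were silent or nearly so. The 9 other family symbols in the table (S100a2, S100a3, S100a5, S100a7a, S100a14, S100a16, S100b, S100g and S100z) never exceeded 7 counts in a library, and none passed the low-count filter. S100a7a, between S100a6 and S100a8, reached 1 count at most. S100a3 and S100a5, on either side of S100a4, reached 5 and 4 counts. S100a4 and S100a6 stood at 219 to 1129 and 616 to 1865 counts in the same libraries. Expressed and silent genes therefore alternated along the cluster, with expression at its 2 ends and at S100a4 and S100a6 between them.

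**Figure D1:**
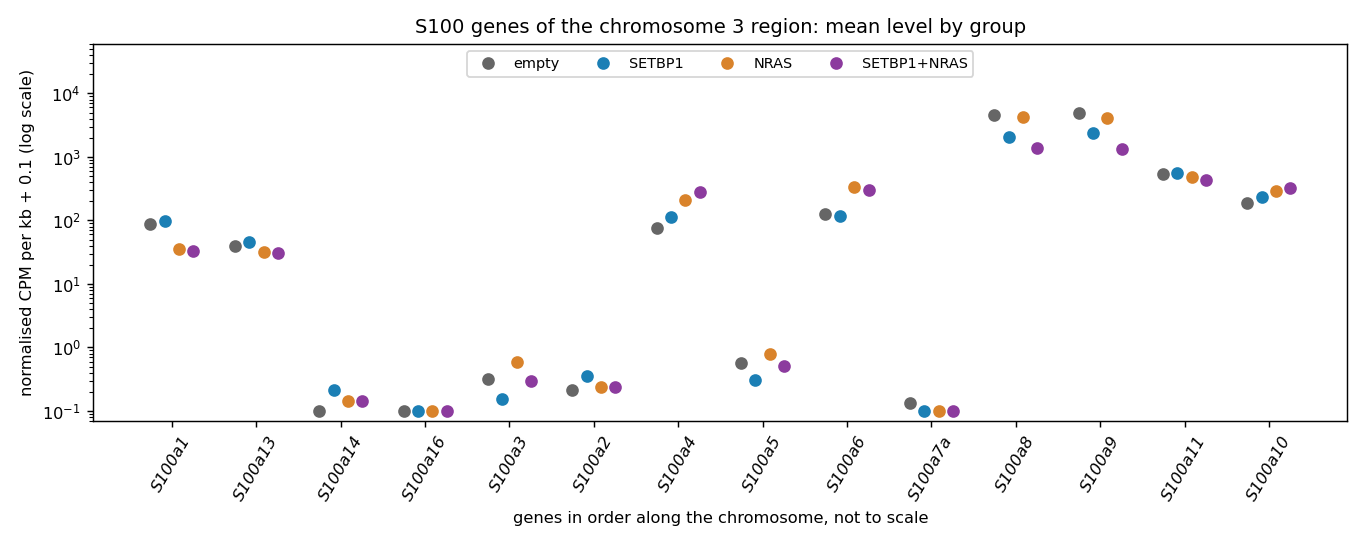
Mean level of the 14 S100 genes of chromosome 3 in each of the 4 groups, as normalised CPM per kilobase of transcript plus 0.1 on a log scale, with genes in chromosomal order and not to scale. The 8 expressed genes stand above 30 in every group, and the other 6 stay under 1.

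Per kilobase of transcript, which allows levels to be compared between genes, S100a9 and S100a8 led in every group. With empty vectors their mean levels were 4908 and 4584 normalised CPM per kilobase, followed by S100a11 at 537, S100a10 at 185, S100a6 at 127, S100a1 at 87.8, S100a4 at 75.9 and S100a13 at 39.6. The calprotectin pair made up 90.0% of the summed per-kilobase level of the 8 genes with empty vectors, 79.4% with SETBP1 (82.2% without SETBP1 replicate 3), 85.7% with NRAS and 66.1% with both mutants. S100a4 stood in the seventh place with empty vectors and in the sixth in every group with a mutant. Its level was 113 normalised CPM per kilobase with SETBP1, 211 with NRAS and 285 with both mutants. With both mutants S100a4 was close behind S100a6 at 298 and S100a10 at 326. S100a1 stood behind it at 32.9.

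Of all counts of a library, the 8 genes together took 0.564 ± 0.0459% (SD, n = 3) with empty vectors, 0.298 ± 0.0388% with SETBP1 (0.319% without SETBP1 replicate 3), 0.490 ± 0.0675% with NRAS and 0.214 ± 0.0232% with both mutants.

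**Figure D2:**
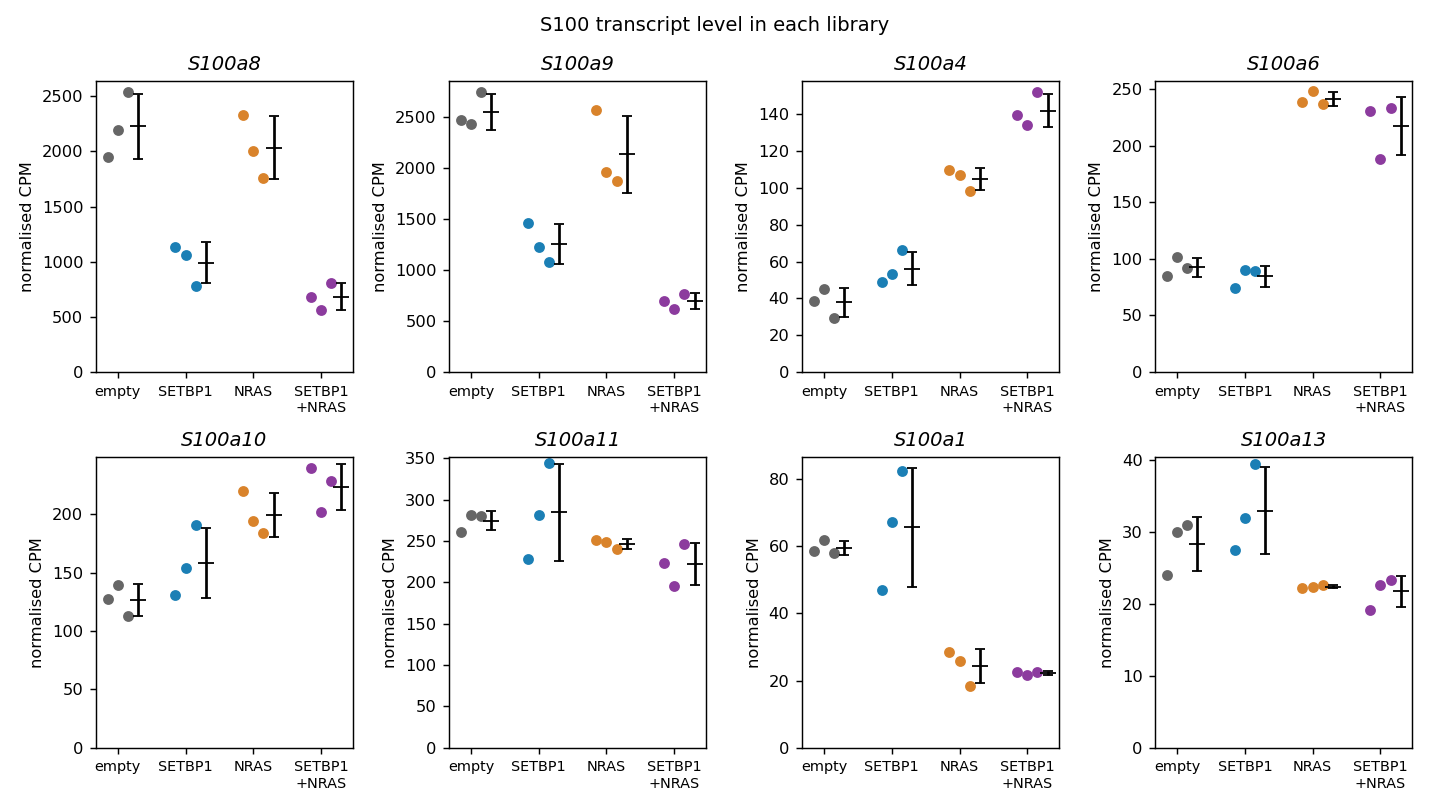
Normalised CPM of each of the 8 S100 genes in the 12 libraries by group, with points for libraries 1 to 3 from left to right and bars for the mean and SD (n = 3), each axis starting at 0. S100a8 and S100a9 are low in the groups with SETBP1, S100a4, S100a6 and S100a10 are high in the groups with NRAS, and S100a1 is low there.

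The tests asked which S100 transcripts each mutant changed. Log2 fold changes, standard errors and Benjamini-Hochberg adjusted p-values are from edgeR's quasi-likelihood test over the 10993 genes, and a gene is called past the threshold at an adjusted p under 0.05. For SETBP1 against empty, 1 of the 8 genes rose and 2 fell, where 8.31% of all genes tested rose and 6.55% fell. For NRAS against empty, 3 rose and 1 fell, against 17.0% and 15.5% of all genes. For both mutants against empty, 3 rose and 3 fell, against 20.8% and 19.8%. Adding SETBP1 to NRAS (both mutants against NRAS) lowered 2 and raised 0, where only 1.38% of all genes fell and 0.528% rose. Adding NRAS to SETBP1 raised 3 and lowered 5, against 20.9% and 21.5%. NRAS against SETBP1 gave 4 higher and 2 lower, against 20.8% and 20.1%. The median log2 change of the 8 genes was 0.10 for SETBP1 against empty, -0.14 for NRAS against empty, -0.34 for both against empty and -0.14 for both against NRAS, while the median over all genes lay between -0.01 and 0.00. Without SETBP1 replicate 3 more of all genes passed the threshold as well. Of the 8 genes 3 passed for SETBP1 against empty, where 15.3% of the 11112 genes then tested did. For NRAS against empty 6 passed, against 47.0% of all genes, and for both against empty 8, against 53.7%. For both against NRAS it was 3 of the 8, against 7.52%, for both against SETBP1 7, against 46.5%, and for NRAS against SETBP1 7, against 43.0%. That library takes no part in some of these contrasts, but all 12 libraries share 1 estimate of the spread.

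**Figure D3:**
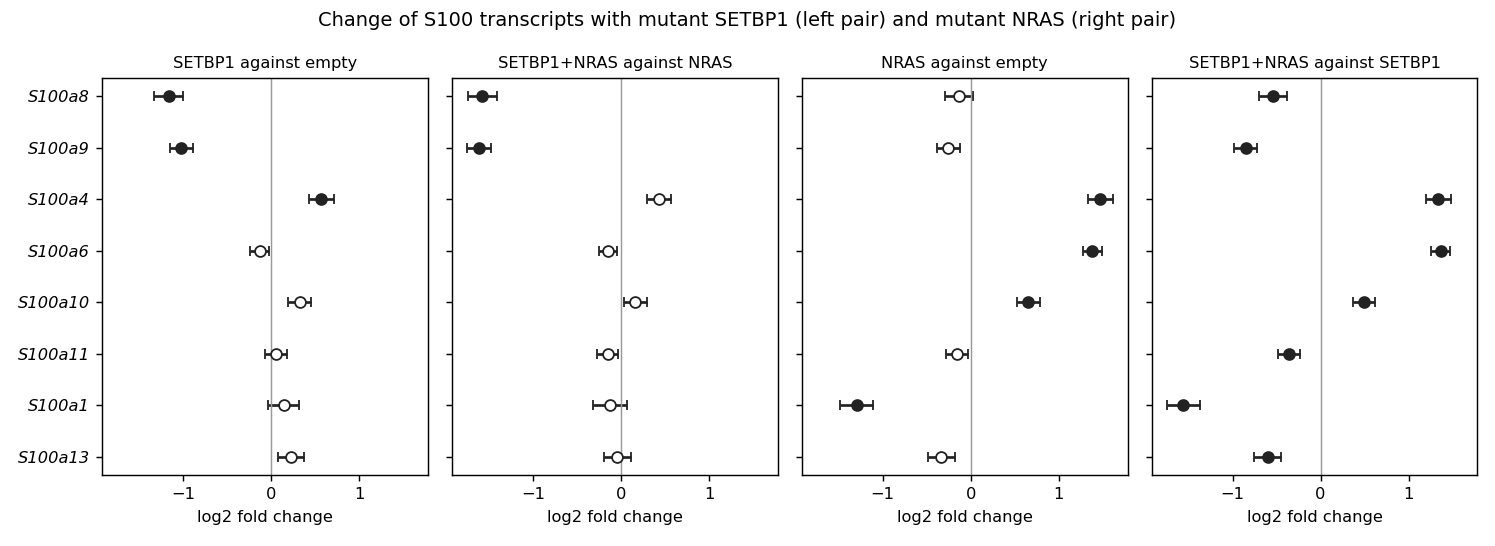
Log2 fold change of the 8 S100 genes for SETBP1 without and with NRAS (left) and for NRAS without and with SETBP1 (right), with bars for the standard error; filled points are past the adjusted p threshold of 0.05. S100a8 and S100a9 lie at -1.02 or below in both left panels, and S100a4 and S100a6 lie at 1.34 or above in both right panels.

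The calprotectin genes S100a8 and S100a9 fell with SETBP1, whether NRAS was present or not. S100a8 stood at 1951, 2194 and 2538 normalised CPM in the empty libraries, 1134, 1064 and 778 with SETBP1, 2330.4, 2005 and 1761 with NRAS and 681, 562 and 804 with both mutants. The lowest empty or NRAS library was above the highest library with SETBP1 in it, and the empty and NRAS groups overlapped. S100a9 stood at 2472, 2426 and 2744 normalised CPM with empty vectors, 1458, 1227 and 1077 with SETBP1, 2567, 1959 and 1870.5 with NRAS and 700.0, 616 and 769 with both. Here too every library with SETBP1 was below every library without it. Group means were 2228 ± 295, 992 ± 189, 2032 ± 286 and 682 ± 121 normalised CPM (SD, n = 3) for S100a8, and 2547 ± 172, 1254 ± 192, 2132 ± 379 and 695 ± 76.3 for S100a9, in the same order of groups. The SETBP1 means were 1099 for S100a8 and 1342 for S100a9 without SETBP1 replicate 3.

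SETBP1 alone lowered S100a8 2.25-fold, a log2 fold change of -1.17 (SE 0.16, adjusted p 0.00134), and S100a9 2.03-fold, at -1.02 (SE 0.13, adjusted p 0.000933). In the presence of NRAS the falls were 2.98-fold for S100a8, at -1.57 (SE 0.16, adjusted p 0.000147), and 3.07-fold for S100a9, at -1.62 (SE 0.13, adjusted p 3.45e-05). These comparisons share no library. Among the 10993 genes tested for both mutants against NRAS, S100a9 ranked 4 and S100a8 ranked 12 by p-value. Without SETBP1 replicate 3, SETBP1 alone gave -1.02 (adjusted p 4.21e-05) for S100a8 and -0.92 (adjusted p 3.99e-05) for S100a9.

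NRAS alone left both genes without a call. S100a8 differed by -0.13 (95% interval -0.47 to 0.21, adjusted p 0.56) and S100a9 by -0.26 (95% interval -0.54 to 0.02, adjusted p 0.152) between NRAS and empty. For S100a9 that call depends on the libraries used, as it passed the threshold without NRAS replicate 1, at -0.41 (adjusted p 0.0292), without SETBP1 replicate 3 (adjusted p 0.0424) and with only the groups compared in the fit (adjusted p 0.0268). On top of SETBP1, NRAS lowered S100a9 by 0.85 on the log2 scale (SE 0.13, adjusted p 0.000185), with groups that did not overlap. S100a8 changed by -0.54 (SE 0.16, adjusted p 0.0146) in that comparison, the groups overlapped (the lowest SETBP1 library was at 778 and the highest with both mutants at 804), and the call ended without SETBP1+NRAS replicate 2, at -0.42 (adjusted p 0.0765). Against empty, both mutants together lowered S100a8 3.26-fold (adjusted p 2e-06) and S100a9 3.66-fold (adjusted p 1.36e-07). NRAS stood above SETBP1 by 1.04 for S100a8 and 0.77 for S100a9 (adjusted p 0.000215 and 0.000491). When SETBP1 replicate 3 was left out, NRAS stood above SETBP1 by 0.89 (adjusted p 1.55e-05) and 0.67 (adjusted p 0.000104), and both mutants below SETBP1 at -0.69 (adjusted p 0.000152) and -0.95 (adjusted p 1.02e-06).

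The pair kept close step with each other. Each library held between 0.956 and 1.38 counts of S100a9 per count of S100a8. By group this ratio was 1.15 ± 0.101 (SD, n = 3) with empty vectors, 1.27 ± 0.116 with SETBP1, 1.05 ± 0.0636 with NRAS and 1.03 ± 0.0706 with both mutants, and the SETBP1 libraries (1.15 to 1.38) overlapped the empty ones (1.08 to 1.27) but lay above those with NRAS (0.977 to 1.10) and with both mutants (0.956 to 1.10). Over the 12 libraries, which include the group differences, Pearson's r of their log2 CPM was 0.979, and S100a9 was the gene most like S100a8 among all genes tested.

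The promoters of the pair are shown because the genes lie 22596 bases apart on opposite strands and moved together. Each runs from 250 bases before to 50 bases after the RefSeq start (GRCm38.p6), S100a8 at chr3:90668821-90669120 on the plus strand and S100a9 at chr3:90695672-90695971 on the minus strand. Capitals mark matches on either strand to motifs of myeloid and stress factors and the TATA box: C/EBP (TTNNGNAA), AP-1 (TGANTCA), STAT (TTCNNNGAA), PU.1 core (GAGGAA) and TATA box (TATAAA).
S100a8: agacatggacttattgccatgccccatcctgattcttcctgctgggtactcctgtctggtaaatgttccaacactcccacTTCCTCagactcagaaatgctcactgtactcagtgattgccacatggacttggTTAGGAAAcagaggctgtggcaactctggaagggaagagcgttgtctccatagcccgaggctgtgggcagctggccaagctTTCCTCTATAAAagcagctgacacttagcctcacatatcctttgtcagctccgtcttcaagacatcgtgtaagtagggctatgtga
S100a9: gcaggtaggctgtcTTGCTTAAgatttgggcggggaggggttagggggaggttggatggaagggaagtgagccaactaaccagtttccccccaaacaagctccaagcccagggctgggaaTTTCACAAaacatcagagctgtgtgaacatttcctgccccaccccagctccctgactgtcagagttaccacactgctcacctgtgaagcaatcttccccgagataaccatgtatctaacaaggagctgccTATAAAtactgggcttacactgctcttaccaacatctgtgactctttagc

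S100a8 held a C/EBP match 117 bases before the start, PU.1 core matches 170 and 36 bases before it, and a TATA box 30 bases before it, which directly follows the nearer PU.1 core. S100a9 held C/EBP matches 236 and 130 bases before its start and a TATA box beginning at the annotated start itself. Such matches are common. Of 32851 promoters of this length, 40.68% held the C/EBP motif, 28.28% the PU.1 core, 13.62% the TATA box, 8.298% the STAT motif and 7.808% the AP-1 motif. A promoter entry was found for 7 of the 8 genes, and S100a10 is the gene without one.

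Neutrophils are the main source of calprotectin in marrow, so genes of neutrophil granules are given beside it. Of 9 tested genes of secondary and tertiary granules, 0 rose and 8 fell with SETBP1 against empty, with a median log2 change of -0.98. All 9 were past the threshold and lower without SETBP1 replicate 3. Retnlg changed by -2.40, Mmp9 (a gelatinase) by -1.31 and Cd177 by -1.30, or by -1.98, -0.98 and -1.15 without that library. With NRAS against empty 7 fell and 1 rose, with a median of -1.54, led by Camp at -2.27, Ltf (lactoferrin) at -2.03 and Ngp at -1.95. The exceptions, chosen after their values were seen, were Mmp9, which rose by 0.96 (SE 0.24, adjusted p 0.00809), and Retnlg at 0.02 (adjusted p 0.972). Adding SETBP1 to NRAS lowered 7 and raised 0, with a median of -1.55, led by Retnlg at -2.71, Ltf at -2.25 and Camp at -2.13. These numbers became 8 lower and 1 higher without SETBP1 replicate 3. The higher one was Mmp8, at 0.70 (adjusted p 0.00414), named after its value was seen. Its mean was 119 ± 8.93 normalised CPM (SD, n = 3) with NRAS and 193 ± 38.2 with both.

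Under NRAS, S100a8 and S100a9 thus stood near the level of the empty libraries while most granule genes stood lower. The 9 granule genes summed to 12690.5 to 13863 normalised CPM with empty vectors, 6024 to 9457 with SETBP1, 3763 to 4463 with NRAS and 1770 to 2007 with both mutants. The summed level of S100a8 and S100a9 per unit of that sum was 0.319 to 0.384 with empty vectors, 0.232 to 0.380 with SETBP1, 0.874 to 1.10 with NRAS and 0.666 to 0.784 with both. Libraries without NRAS lay at 0.384 or below and libraries with it at 0.666 or above, and this ratio was not put to a test. Chil3 and Ngp, named after their values were seen, held most of the granule sum and so weigh most in the ratio. Chil3 had a mean of 6303 normalised CPM with empty vectors and 1815 with NRAS, and Ngp 4252 and 1103. Of 5 primary granule genes (Mpo, Elane, Prtn3, Ctsg and Ms4a3), 2 fell with SETBP1, 5 with NRAS, 5 with both against empty and 4 with both against NRAS, and 0 rose. Of 8 monocyte and macrophage markers, 3 rose and 0 fell with SETBP1, 0 rose and 4 fell with NRAS, and 2 rose and 2 fell with both against NRAS. These became, without SETBP1 replicate 3, 2 higher and 1 lower with SETBP1, 2 higher and 6 lower with NRAS, and 4 higher and 2 lower with both against NRAS. Their sums were 4983 to 5437 normalised CPM with empty vectors, 5160 to 6596 with SETBP1, 3827 to 4216 with NRAS and 3481 to 3838 with both. Fewer cells of a type and less RNA per cell cannot be told apart in bulk samples.

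Markers of other blood cells differed between the groups as well. Of 6 mast cell and basophil markers, 5 fell with SETBP1, 6 with NRAS and 6 with both against empty, with median log2 changes of -1.21, -1.86 and -2.91, and 2 fell with both against NRAS (5 without SETBP1 replicate 3). Their sums were 1188 to 1207 normalised CPM with empty vectors, 634 to 807 with SETBP1, 308 to 524 with NRAS and 174 to 226 with both, with every marker detected in each group. Of 4 eosinophil markers, 1, 1 and 2 fell in the same comparisons with empty (1, 2 and 4 without SETBP1 replicate 3), and they summed to 190.4 to 332 normalised CPM with empty vectors, 13.96 to 239 with SETBP1, 133 to 263 with NRAS and 26.5 to 109.7 with both. Of 3 erythroid markers tested, 0, 1 and 3 fell (1, 2 and 3 without that library), and the 6 listed summed to 33.3 to 36.0 normalised CPM with empty vectors, 19.9 to 24.4 with SETBP1, 19.2 to 25.2 with NRAS and 4.44 to 8.06 with both. Of 4 megakaryocyte markers, 1 rose and 0 fell with SETBP1, 0 rose and 3 fell with NRAS and 1 rose and 3 fell with both (1 and 1, 0 and 3, and 1 and 3 without that library), and their sums were 166 to 200.2 normalised CPM with empty vectors, 209 to 448 with SETBP1, 118 to 160.3 with NRAS and 173 to 203 with both. The part of these marker differences in the S100a8 and S100a9 result was not tested.

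**Figure D4:**
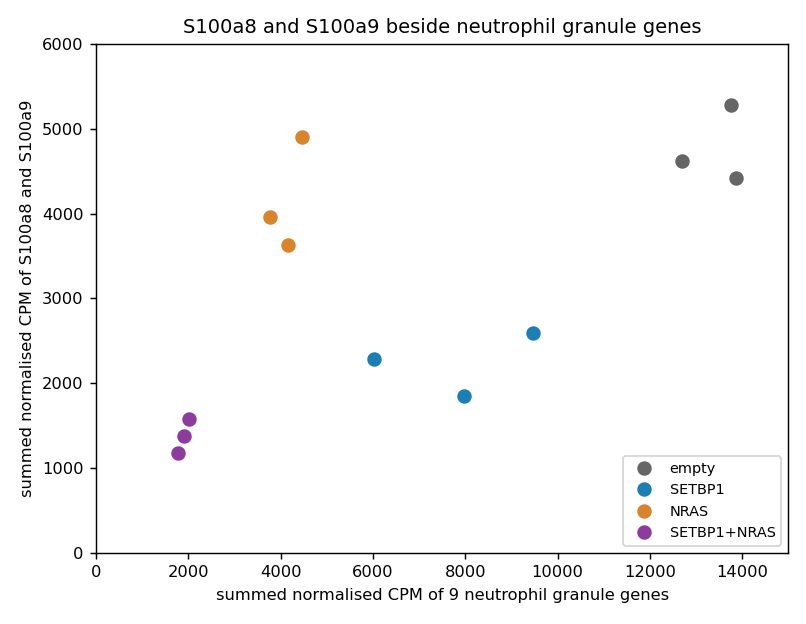
Summed normalised CPM of S100a8 and S100a9 against that of 9 neutrophil granule genes, 1 point per library coloured by group, both axes from 0. The NRAS libraries hold 3632 to 4898 of the pair at granule sums of 3763 to 4463, while the empty libraries hold 4422 to 5283 at 12690.5 to 13863. Chil3 and Ngp make up most of the granule sum.

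Among 9 myeloid transcription factors, SETBP1 raised 2 (log2 changes of 0.81 for Irf8 and 0.69 for Cebpb) and lowered 2 (-0.46 for Stat3 and -0.44 for Gfi1). Gfi1 was named after its value was seen. The changes were 0.59 for Irf8, 0.34 for Cebpb (adjusted p 0.0764), -0.35 for Stat3 and -0.45 for Gfi1 without SETBP1 replicate 3. Irf8 directs monocyte fate. NRAS against empty lowered 4 and raised 0, with Klf4 at -2.27, Gfi1 at -0.94 and Irf8 at -0.69. Both mutants against empty lowered 7 and raised 0, with Klf4 at -1.80, Gfi1 at -1.33 and Cebpe, a factor of late granulocyte maturation, at -1.17. Both against NRAS lowered 1, Cebpe, at -0.96 (SE 0.20, adjusted p 0.0243). Its level was 58.7 ± 2.80 normalised CPM (SD, n = 3) with empty vectors, 48.8 ± 17.7 with SETBP1, 51.0 ± 1.60 with NRAS and 26.2 ± 4.05 with both. Without SETBP1 replicate 3 the numbers became 1 higher and 3 lower with SETBP1, 7 lower with NRAS, and 1 higher and 3 lower with both against NRAS. In that fit Cebpe was also lower for SETBP1 against empty, at -0.60 (adjusted p 0.00238). For both against NRAS, Cebpe was then at -0.97 (adjusted p 1.16e-05), Irf8 at 0.49 (adjusted p 0.00344) and Cebpa at -0.44 (adjusted p 0.00873).

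Receptors of extracellular S100 proteins rose where they changed against empty vectors. Of 8 listed, 6 were tested, and Ager and Mcam did not pass the low-count filter. SETBP1 raised 2 and lowered 0, Cd14 by 1.56 (SE 0.26, adjusted p 0.00306) and Cd36, a scavenger receptor, by 1.52 (SE 0.29, adjusted p 0.00678). These changes were 1.12 (adjusted p 8.32e-05) and 1.26 (adjusted p 0.00253) without SETBP1 replicate 3. NRAS raised 2 and lowered 0, Cd14 by 3.44 (SE 0.26, adjusted p 4.23e-07) and Cd36 by 2.79 (SE 0.29, adjusted p 7.27e-06). Both mutants against empty raised 3 (Cd36 3.95, Cd14 3.41 and Tlr4 0.33), and both against NRAS raised 1, Cd36 (1.16). Among all genes tested, 8.31% rose with SETBP1, 17.0% with NRAS, 20.8% with both against empty and 0.528% with both against NRAS. The level of Cd14, a co-receptor of Tlr4, was 32.8 ± 6.26 normalised CPM (SD, n = 3) with empty vectors, 96.8 ± 44.1 with SETBP1, 358 ± 10.4 with NRAS and 349 ± 65.7 with both. With SETBP1, Cd14 and Cd36 thus rose while S100a8 and S100a9 fell. NRAS against SETBP1 raised 2 receptors and lowered 1, Ly96, at -0.94, and without SETBP1 replicate 3 it raised 3 and lowered 0, with Ly96 at -0.64 (adjusted p 0.087). For both mutants against empty 5 were higher without SETBP1 replicate 3, where 27.1% of all genes were.

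S100a4, S100a6 and S100a10 were higher in the libraries with NRAS. S100a4, known as metastasin, binds the heavy chain of non-muscle myosin and is linked to cell motility. It stood at 38.6, 45.2 and 29.6 normalised CPM with empty vectors, 48.9, 53.2 and 66.4 with SETBP1, 109.5, 107 and 98.4 with NRAS and 139.6, 134 and 152 with both mutants. No 2 groups overlapped, and the order was empty, SETBP1, NRAS and both. NRAS raised S100a4 2.77-fold against empty, at 1.47 (SE 0.14, adjusted p 4.2e-06), and 2.53-fold on top of SETBP1, at 1.34 (SE 0.14, adjusted p 6.61e-06), or 1.48 (adjusted p 7.77e-09) without SETBP1 replicate 3.

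SETBP1 alone raised S100a4 1.48-fold, at 0.57 (SE 0.14, adjusted p 0.0212). That call ended without empty replicate 1 (adjusted p 0.0696), without empty replicate 3, at 0.43 (adjusted p 0.0931), and with only the groups compared in the fit (adjusted p 0.13), and it held without SETBP1 replicate 3, at 0.43 (adjusted p 0.0274). On top of NRAS, SETBP1 gave 0.44 (95% interval 0.14 to 0.73, adjusted p 0.155), not past the threshold. The same difference passed with only those groups in the fit (adjusted p 0.000905) and without SETBP1 replicate 3 (adjusted p 0.0095). Both mutants together held 3.75 times the S100a4 of the empty group, at 1.91 (SE 0.14, adjusted p 2.18e-07). The gene overlaps the annotated gene Gm42674 on its own strand, so reads of that stretch may not belong to S100a4 alone.

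S100a6, or calcyclin, was first described as a gene of growth-stimulated cells and binds the ubiquitin-ligase adaptor Cacybp. It stood at 84.5, 101 and 92.0 normalised CPM with empty vectors, 74.2, 89.8 and 89.3 with SETBP1, 239, 248 and 236 with NRAS and 231, 188 and 233 with both. The 6 libraries with NRAS lay at 188 or above and the 6 without it at 101 or below. NRAS raised it 2.61-fold against empty, at 1.38 (SE 0.10, adjusted p 3.97e-07), and 2.58-fold on top of SETBP1, at 1.37 (SE 0.10, adjusted p 3.37e-07), or 1.41 (adjusted p 1.46e-09) without SETBP1 replicate 3. SETBP1 gave no call, at -0.13 (95% interval -0.36 to 0.09, adjusted p 0.389) alone and -0.15 (95% interval -0.37 to 0.07, adjusted p 0.687) on top of NRAS.

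S100a10, or p11, does not bind calcium and forms a tight complex with the annexin Anxa2 at the membrane. It stood at 128, 139.8 and 113 normalised CPM with empty vectors, 131, 154 and 191 with SETBP1, 220.1, 194 and 184 with NRAS and 239.7, 202 and 229 with both. The SETBP1 group overlapped the empty and the NRAS group, while the groups with NRAS lay above the empty group. NRAS raised it 1.57-fold against empty, at 0.65 (SE 0.13, adjusted p 0.00149), and 1.41-fold on top of SETBP1, at 0.50 (SE 0.13, adjusted p 0.00695). SETBP1 alone gave 0.32 (95% interval 0.05 to 0.60, adjusted p 0.101), which passed without SETBP1 replicate 1 (adjusted p 0.017) and was 0.17 (adjusted p 0.288) without SETBP1 replicate 3. NRAS against SETBP1 was close to the threshold, at 0.33 (SE 0.13, adjusted p 0.0517), and passed it without SETBP1 replicate 3, at 0.49 (adjusted p 0.000646).

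The promoters of S100a4 (chr3:90603520-90603819) and S100a6 (chr3:90612644-90612943), both on the plus strand, are shown because the genes are near neighbours that rose together with NRAS. Windows, build and capitals are as for S100a8.
S100a4: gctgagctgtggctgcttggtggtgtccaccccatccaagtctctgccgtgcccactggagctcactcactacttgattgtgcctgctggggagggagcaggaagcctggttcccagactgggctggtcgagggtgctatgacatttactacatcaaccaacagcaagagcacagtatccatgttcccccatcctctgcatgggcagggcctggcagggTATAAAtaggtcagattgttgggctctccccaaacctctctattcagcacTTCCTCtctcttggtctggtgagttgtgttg
S100a6: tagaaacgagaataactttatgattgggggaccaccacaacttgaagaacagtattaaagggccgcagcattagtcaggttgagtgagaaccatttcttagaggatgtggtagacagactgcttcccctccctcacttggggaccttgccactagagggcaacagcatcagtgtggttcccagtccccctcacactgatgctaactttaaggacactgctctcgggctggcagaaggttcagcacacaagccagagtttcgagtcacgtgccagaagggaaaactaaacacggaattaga

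S100a4 held a TATA box 31 bases before the start and a PU.1 core 19 bases after it, and S100a6 held no match to any of the 5 motifs. The pair of windows thus had no motif in common among those searched. The window of S100a11 held AP-1 matches 136 and 38 bases before its start and a PU.1 core 153 bases before it. These matches describe letters in the windows and say nothing of binding.

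Intracellular partners of S100 proteins were counted over a list of 11 tested genes. NRAS against empty raised 5 and lowered 2, with a median log2 change of 0.33, and both mutants against SETBP1 raised 6 and lowered 2, with a median of 0.47. Among all genes tested, 17.0% rose and 15.5% fell in the former comparison, and 20.9% and 21.5% in the latter. Lmna, which encodes lamin A of the nuclear envelope, rose by 2.46 (SE 0.12, adjusted p 6.61e-09), Anxa2 by 0.97 (SE 0.11, adjusted p 2.18e-05) and the tropomyosin gene Tpm1 by 0.95 (SE 0.09, adjusted p 3.33e-06) with NRAS against empty. Anxa2, the partner of S100a10, stood at 469 ± 35.0 normalised CPM (SD, n = 3) with empty vectors, 438 ± 84.5 with SETBP1, 921 ± 47.9 with NRAS and 1104 ± 80.8 with both, so that gene and S100a10 were each higher in both groups with NRAS. SETBP1 against empty raised 2 and lowered 2, where 8.31% of all genes rose and 6.55% fell. Here Ctsb (cathepsin B) was at 0.96, Myh9, the myosin partner of S100a4, at -0.77 and Cacybp, the partner of S100a6, at 0.50. Ctsb was at 0.61 (adjusted p 5.04e-05), Myh9 at -0.47 (adjusted p 0.00555) and Cacybp at 0.39 (adjusted p 0.000313) without SETBP1 replicate 3. In that fit NRAS against empty gave 7 higher and 2 lower partners. Myh9 was at 0.57 (adjusted p 3.52e-05) and Cacybp at 0.33 (adjusted p 4.61e-05). The lower ones were Anxa1 at -0.35 (adjusted p 0.00022) and Anxa6 at -0.31 (adjusted p 0.00202). These NRAS values were picked after they were seen. Both mutants against NRAS gave 0 calls by edgeR, and 3 higher and 1 lower without SETBP1 replicate 3, where 3.21% of all genes were higher and 4.31% lower.

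S100a1 fell where NRAS was present. It is best known from heart and skeletal muscle, where it tunes calcium release and uptake by the sarcoplasmic reticulum. It stood at 58.6, 61.8 and 57.9 normalised CPM with empty vectors, 47.0, 67.2 and 82.5 with SETBP1, 28.4, 25.8 and 18.5 with NRAS and 22.5, 21.6 and 22.6 with both. Libraries with NRAS lay at 28.4 or below and libraries without it at 47.0 or above. NRAS lowered S100a1 2.45-fold against empty, at -1.29 (SE 0.19, adjusted p 0.000138), and 2.94-fold on top of SETBP1, at -1.56 (SE 0.19, adjusted p 2.19e-05). Without SETBP1 replicate 3, the highest of all 12 libraries for this gene, the change on top of SETBP1 was -1.35 (adjusted p 6.76e-07). SETBP1 gave 0.14 (95% interval -0.24 to 0.52, adjusted p 0.602) alone and -0.12 (95% interval -0.54 to 0.30, adjusted p 0.929) on top of NRAS, neither past the threshold, and the former changed sign without SETBP1 replicate 3, at -0.06 (adjusted p 0.816).

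S100a13, which takes part in the export of growth factors and interleukins that lack a signal peptide, was the least abundant of the 8. It stood at 24.0, 30.0 and 30.9 normalised CPM with empty vectors, 27.5, 31.9 and 39.4 with SETBP1, 22.2, 22.3 and 22.6 with NRAS and 19.2, 22.7 and 23.3 with both. Every library with NRAS was below every library without it. NRAS lowered it by 0.60 on the log2 scale on top of SETBP1 (SE 0.15, adjusted p 0.00641), or -0.45 (adjusted p 0.0125) without SETBP1 replicate 3. Against empty the change was -0.34 (95% interval -0.67 to -0.01, adjusted p 0.109), which passed with library size scaling (adjusted p 0.0311), with only the groups compared (adjusted p 0.0281) and without SETBP1 replicate 3 (adjusted p 0.0344). For both mutants against empty it was -0.38 (95% interval -0.71 to -0.05, adjusted p 0.063), past the threshold in 6 of 19 alternatives.

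S100a1 and S100a13 sit head to head on opposite strands, 42 bases apart in GENCODE. In RefSeq the spans overlap by 98 bases and the promoter windows share 204 bases. Whether the counting used strand is not given in the sources used here, and reads from a shared stretch cannot be told apart without it. The promoter of S100a1 (chr3:90514281-90514580, minus strand, GRCm38.p6) is shown with the bases shared with the S100a13 window in capitals.
S100a1: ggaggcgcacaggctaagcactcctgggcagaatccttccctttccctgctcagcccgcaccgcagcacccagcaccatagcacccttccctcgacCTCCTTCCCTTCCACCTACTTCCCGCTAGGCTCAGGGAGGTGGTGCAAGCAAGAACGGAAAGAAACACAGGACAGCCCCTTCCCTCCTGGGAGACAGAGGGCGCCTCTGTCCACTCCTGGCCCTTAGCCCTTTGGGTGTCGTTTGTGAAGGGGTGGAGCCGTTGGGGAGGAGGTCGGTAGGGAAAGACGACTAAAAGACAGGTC

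Neither window held a match to the 5 motifs. In contrast to S100a1, which fell 2.45-fold with NRAS, S100a13 had 1.26-fold less with NRAS than with empty vectors, so the neighbours differed in the size of the change. That difference between the genes was not tested.

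S100a11, which binds the annexin Anxa1 and takes part in membrane repair, was the third most abundant of the 8 per kilobase and had group means from 222 to 285 normalised CPM. It stood at 261, 282 and 280.4 normalised CPM with empty vectors, 228, 281 and 344 with SETBP1, 251, 248 and 239.8 with NRAS and 223, 196 and 246 with both. The SETBP1 libraries spanned 228 to 344, a range that took in every empty and NRAS library. Both mutants stood below SETBP1, at -0.36 (SE 0.12, adjusted p 0.0301), but that call ended without SETBP1 replicate 3, at -0.20 (adjusted p 0.0805), without SETBP1+NRAS replicate 1 (adjusted p 0.0736) or replicate 2 (adjusted p 0.134), and with only the groups compared (adjusted p 0.102). NRAS against empty gave -0.15 (95% interval -0.42 to 0.11, adjusted p 0.362). Both mutants against empty gave -0.31 (95% interval -0.57 to -0.04, adjusted p 0.0601), past the threshold in 5 of 19 alternatives. Reads could also be shared with a processed pseudogene, S100a11-ps on chromosome 12.

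The interaction asks whether the SETBP1 change with NRAS differs from the SETBP1 change without it, as the difference of the log2 changes. Of the 8 genes 0 passed the threshold by edgeR, DESeq2 or limma-voom, where 0.00910% of all genes were higher and 0.0364% lower by edgeR. S100a9 alone had an unadjusted p under 0.05. Its interaction was -0.59 (95% interval -0.99 to -0.20, adjusted p 0.266), with an unadjusted p of 0.00656, and it passed without SETBP1 replicate 3, at -0.69 (adjusted p 0.0276). S100a8 gave -0.41 (95% interval -0.89 to 0.07, adjusted p 0.455). The other 6 lay between -0.26 and -0.02, with intervals that reach from -0.83 to 0.30, so differences within those bounds were not resolved at 3 libraries a group.

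Ordering the groups by level gave 4 patterns among the 8 genes. For S100a8 and S100a9 the order from high to low was empty, NRAS, SETBP1 and both. Empty and NRAS did not differ past the threshold, and the later steps did. For S100a4 and S100a10 it was both, NRAS, SETBP1 and empty. Each step of S100a4 but the one between both and NRAS passed the threshold, while no single step of S100a10 did. For S100a1, S100a11 and S100a13 the order was SETBP1, empty, NRAS and both, and only the step from empty to NRAS in S100a1 passed. The first step turned without SETBP1 replicate 3 for S100a1, at -0.06 (adjusted p 0.816), and S100a11, at -0.11 (adjusted p 0.449), with empty above SETBP1. For S100a6 it was NRAS, both, empty and SETBP1, and only the step from both to empty passed.

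The 3 genes whose log2 CPM followed each S100 gene most closely over the 12 libraries are given as a description, since all points share the group differences and the library scaling. S100a8 was followed by S100a9 (Pearson's r 0.979), Hemgn (0.953) and Rhou (0.945), and S100a9 by Tuba4a (0.987), S100a8 (0.979) and Lipg (0.963). Lipg, a lipase gene, stood at 60.6 ± 15.7 normalised CPM (SD, n = 3) with empty vectors, 18.7 ± 6.27 with SETBP1, 38.1 ± 8.20 with NRAS and 6.75 ± 0.236 with both. S100a4 was followed by Denr (0.994), Metrnl (0.990) and Lpxn (0.988), and S100a10 by Alyref (0.982), Esd (0.978) and the actin-binding profilin gene Pfn1 (0.973). S100a6 was followed by the myeloid receptor gene Clec5a (0.989), Gm5416 (0.987) and Gm5483 (0.986). Gm5416 was listed at 0 in the libraries without NRAS and stood at 48.5 ± 6.24 normalised CPM with NRAS and 35.45 ± 6.27 with both. S100a1 was followed by the phosphatase gene Ptpn1 (0.988), Cdk2ap2 (0.988) and Tmem205 (0.987), S100a13 by Hmgn5 (0.959), Sdf2 (0.952) and Cradd (0.952), and S100a11 by Zfp951 (0.946), 1810037I17Rik (0.944) and Ccpg1os (0.942). None of the 8 genes but S100a8 and S100a9 had another of the 8 among these.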

How the data were processed

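Whole-number counts per gene, not normalised, were deposited by the authors for 12 libraries made with a SMART-Seq kit for very low RNA input, per the labels' protocols. The submitters' processing notes name STAR, DESeq2 and mm10 without roles or versions, and the counting tool, annotation and strand setting are not given in the sources used here. No column of other samples was present (0). Counts were tested with edgeR 4.0.16 in R 4.3.3: scaling by trimmed mean of M-values, a low-count filter (filterByExpr, minimum count 10, minimum total count 15) and a two-sided quasi-likelihood F test on 4 group means. P-values were adjusted by Benjamini-Hochberg over all genes tested. Normalised CPM uses the scaled library sizes, and log2 CPM a prior count of 2. Lengths and positions are from GENCODE for GRCm38, and promoters from RefSeq. No pair of libraries was a duplicate, as the chi-square per gene was 2.75 or more within groups. DESeq2 1.42.0, limma-voom (limma 3.58.1), other scalings, no filter, only the groups compared, a replicate block and leaving out each library were alternatives. The edgeR fit and its tests, and no other step, were tried on simulated counts.

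The 8 genes and the gene lists were chosen with earlier results of these data known. The 8 genes are named in every group, with Setbp1, Nras, the 3 genes most correlated with each, and from each list up to 3 genes with the largest change past the threshold in a comparison. Exceptions are marked. The lists were other S100 genes, partners, receptors, other EF-hand proteins, the NADPH oxidase, myeloid transcription factors and cell type markers. Counts over the marker and transcription factor lists are to be read beside the shares of all genes given with the tests.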

Additional observations from a re-analysis of the deposited data

How the results depend on the processing

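Over 1056 alternative values of the 8 genes' log2 changes, 1009 kept their direction and side of the threshold, 8 lost a call, 27 gained one and 12 changed sign, and each sign change was in a value not past the threshold. For NRAS against empty, 7 genes passed with only the groups compared in the fit, where 4 passed with all groups, and the added ones were S100a9, S100a11 and S100a13. The share of all genes past the threshold in that fit was not computed, so the added calls are not read as particular to these genes. Leaving out each library in turn gave 0 to 1 genes for the interaction, the 1 without SETBP1 replicate 3, where 0.990% of all genes passed. On the log2 scale the values that changed sign in such fits spanned -0.062 to 0.34 for S100a1 and -0.11 to 0.19 for S100a11 (SETBP1 against empty), -0.28 to 0.0061 for S100a1 and -0.10 to 0.038 for S100a13 (both against NRAS), and -0.29 to 0.0092 for S100a4 and -0.11 to 0.079 for S100a6 (interaction). With library size scaling S100a11 was at -0.00086 for SETBP1 against empty, and the median of all genes moved to -0.10 for NRAS and -0.13 for both mutants against empty. The cause was not tested. The labels do not say whether replicate numbers pair the libraries. Deviations of same-numbered libraries from their group means correlated at -0.13 to 0.12 over 18 pairs, 1 of them over 0.1. Those of different numbers correlated at -0.14 to 0.16. With so few libraries a group, such values cannot exclude that same-numbered libraries share a source. With the replicate number as a block, 3, 4, 7, 2, 8, 6 and 0 genes passed for SETBP1, NRAS and both against empty, then both against NRAS, both against SETBP1, NRAS against SETBP1 and the interaction. The added call was S100a13 for both against empty (adjusted p 0.0367), and the block changed no other call. With the block the share of all genes past the threshold was not computed. Depth was not a limit for the 8 genes, whose lowest count in a library was 137, while the other S100 genes were too low to compare.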

Other observations

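Other EF-hand genes did not move as a group. Of 12 tested, SETBP1 against empty raised 1 and lowered 2, NRAS against empty raised 3 and lowered 2, and both mutants against empty raised 3 and lowered 4. Among all genes tested, 8.31% rose and 6.55% fell with SETBP1, 17.0% and 15.5% with NRAS, and 20.8% and 19.8% with both. Both against NRAS gave 0 calls by edgeR, and 2 higher and 0 lower without SETBP1 replicate 3, where SETBP1 against empty gave 1 and 3, NRAS against empty 3 and 4, and both against empty 3 and 5. Aif1, which encodes an actin-bundling EF-hand protein of monocytes and macrophages, changed most. It stood at 21.2 ± 4.43 normalised CPM (SD, n = 3) with empty vectors, 46.1 ± 15.8 with SETBP1, 3.86 ± 1.58 with NRAS and 7.19 ± 1.11 with both mutants. Its log2 change was 1.12 with SETBP1 and -2.45 with NRAS against empty, both past the threshold. Lcp1, the leukocyte plastin that bundles actin, changed by -0.29 and 0.75 in the same comparisons, also past the threshold. The SETBP1 changes were 0.81 (adjusted p 0.00702) for Aif1 and -0.34 (adjusted p 0.00417) for Lcp1 without SETBP1 replicate 3.

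The NADPH oxidase makes the reactive oxygen of phagocytes, and calprotectin is known to promote its assembly. Of its 6 subunit genes tested, 1 fell with SETBP1 (Ncf1, log2 change -0.26), 1 fell with NRAS (Cybb, -0.87) and 2 fell with both against empty, and 0 rose. Among all genes tested, 6.55%, 15.5% and 19.8% fell in these comparisons, and 8.31%, 17.0% and 20.8% rose. Without SETBP1 replicate 3 these became 0 higher and 2 lower with SETBP1, 1 higher and 3 lower with NRAS, and 1 higher and 4 lower with both. In that fit 7.61% of all genes were higher and 7.73% lower with SETBP1, 24.4% and 22.6% with NRAS, and 27.1% and 26.6% with both. Ncf1 was then at -0.35 (adjusted p 0.00202) for SETBP1 against empty. Cybb, the catalytic subunit, stood at 422 ± 8.93 normalised CPM (SD, n = 3) with empty vectors, 428 ± 14.4 with SETBP1, 229.9 ± 0.950 with NRAS and 228 ± 18.4 with both.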
